A study of Mus musculus with 9 samples.

Results

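The 8 genes described here encode 2 steroid receptors of mammary luminal cells, Esr1 and Pgr, 5 regulators of luminal transcription, Foxa1, Gata3, Spdef, Cited1 and Myb, and the oestrogen target Greb1. They were taken by symbol from the deposited array values of 9 mouse mammary tumour samples. Each of the 8 was covered by 1 feature (a set of probes summarised to 1 value) that the annotation assigns to 1 gene, and the 8 stand among 19938 genes measured in this way. The tumours were grown from the transplantable mammary tumour cell lines SSM2, NDL and Met1, with 3 tumour samples per line, and every pair of lines was compared. For all of them, cultured cells were placed bilaterally in the fat pads of FVB/NJ females 6 to 8 weeks old, and tumours were frozen once 5 to 10 mm wide. No group received a drug or other treatment according to the labels. As background, SSM2 is known as a hormone receptor-positive line, NDL carries an activated ErbB2 (neu) transgene under a mouse mammary tumour virus promoter, and Met1 derives from a mammary tumour of a polyoma middle T transgenic mouse. Each model is 1 cell line, and the fat pads were not cleared of the host's own mammary ducts, so host epithelium and stroma can add to every sample. Whether the 3 samples of a line are separate tumours or animals is not stated, so p-values measure only the spread between these samples, which may be technical.

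In the normal mammary gland, oestrogen receptor alpha (encoded by Esr1) and the progesterone receptor (Pgr) are carried by a subset of luminal cells, the hormone-sensing cells. On binding its hormone each receptor acts as a transcription factor, and Pgr is itself a well-known target of oestrogen receptor alpha. FOXA1 opens chromatin for the oestrogen receptor, GATA3 maintains luminal cell fate, and GREB1 is an oestrogen-induced cofactor of the receptor in human breast cancer cells.

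The promoters of 4 of the genes are shown. Pgr, Foxa1 and Myb were higher in SSM2 than in both other lines and held a FOXA motif (given below), while Greb1, a classical oestrogen target, passed in no comparison. Esr1 and Cited1 were also higher in SSM2 than in both other lines, but their windows held no FOXA motif and are not shown. Spdef held a FOXA motif and was not higher in SSM2. Each window runs from 250 bases before to 50 bases after a transcription start in RefSeq (GRCm38.p6), 5′ to 3′ on the gene's strand, and the windows were picked after the matches were seen. Capitals mark matches to the motifs searched on both strands. Pgr lies on the plus strand at chr9:8899583-8899882, Foxa1 on the minus strand at chr12:57546062-57546361, Myb on the minus strand at chr10:21160935-21161234, and the first of 2 Greb1 windows on the minus strand at chr12:16757190-16757489.
Pgr: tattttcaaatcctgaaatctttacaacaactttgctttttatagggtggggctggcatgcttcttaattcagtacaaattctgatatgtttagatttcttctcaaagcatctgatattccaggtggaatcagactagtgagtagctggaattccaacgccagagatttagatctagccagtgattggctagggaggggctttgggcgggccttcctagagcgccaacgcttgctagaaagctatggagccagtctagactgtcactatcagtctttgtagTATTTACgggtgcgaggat
Foxa1: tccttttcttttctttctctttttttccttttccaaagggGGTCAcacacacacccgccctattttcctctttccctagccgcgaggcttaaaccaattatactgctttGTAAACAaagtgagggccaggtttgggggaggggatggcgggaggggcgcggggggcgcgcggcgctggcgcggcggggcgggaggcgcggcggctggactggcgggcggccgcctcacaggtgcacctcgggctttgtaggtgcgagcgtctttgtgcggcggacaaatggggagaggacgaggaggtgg
Myb: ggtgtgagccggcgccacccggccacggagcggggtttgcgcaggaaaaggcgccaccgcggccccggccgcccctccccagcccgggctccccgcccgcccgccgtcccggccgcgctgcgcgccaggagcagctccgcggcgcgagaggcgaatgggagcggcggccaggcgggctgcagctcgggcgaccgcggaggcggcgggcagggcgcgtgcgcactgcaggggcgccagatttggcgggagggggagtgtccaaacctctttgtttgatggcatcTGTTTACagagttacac
Greb1: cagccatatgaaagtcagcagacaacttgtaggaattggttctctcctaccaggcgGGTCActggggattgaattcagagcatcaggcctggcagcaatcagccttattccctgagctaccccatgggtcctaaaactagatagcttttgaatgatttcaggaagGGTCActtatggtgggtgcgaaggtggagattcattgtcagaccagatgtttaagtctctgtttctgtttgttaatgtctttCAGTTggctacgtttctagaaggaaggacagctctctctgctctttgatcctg

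All 8 genes had at least 1 such window and there were 12 in all, since some genes have several starts. A FOXA motif, TGTTTAC or TATTTAC, was found in 4 of the 12 windows, those of Pgr, Foxa1, Myb and Spdef, against 6.54% of all 32851 windows of the same length. In Pgr it lay 32 to 38 bases after the start, in Myb 34 to 40 bases after the start, and in Foxa1 on the opposite strand at positions -141 to -135. GGTCA, the core of the oestrogen response element, was found in 8 of 12 windows, against 40.5% of all windows. Greb1 held it at -194 to -190 and again at -85 to -81 in the window shown, and on the opposite strand at -88 to -84 in its second window. The full oestrogen response element, GGTCA and TGACC joined by any 3 bases and so overlapping that core, was in 0 of 12 windows, against 0.07% of all windows. AACTG, a core MYB motif, was in 4 windows (44.8% of all), TGTTCT, the core of the progesterone response element, in 1 (19%), GGATGT, an SPDEF motif, in 1 (11.1%), and the GATA motifs AGATAA and TGATAA in 0 (18.6%). These are letter matches, not binding sites.

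Arrays of a line correlated across genes, which are not independent replicates, at r from 0.962 to 0.983 in SSM2, 0.947 to 0.986 in NDL and 0.987 to 0.995 in Met1, and the upper quartile of signal ran from 7.84 to 8.09 over the 9 arrays. NDL replicate 3 had the highest, 8.09, against 7.85 and 7.84 in NDL replicates 1 and 2. Arrays have no read depth, and 3 per line limits the precision. All values below are log2 signals or differences of log2 signals. The 25th percentile of gene means, 4.91, is used as a mark of low signal. Lower still, the 3 Y-linked genes measured lay between 2.61 and 3.85 in these female hosts. Erbb2, a check of the models, stood at 8.80 ± 0.16 in SSM2, 11.30 ± 0.08 in NDL and 7.47 ± 0.28 in Met1 (mean ± SD, n = 3 each).

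SSM2 tumours had higher signal than both other lines for 5 of the 8 genes: Esr1, Pgr, Foxa1, Cited1 and Myb. The excess over NDL ran from 2.97-fold for Esr1 to 21.7-fold for Pgr, and that over Met1 from 4.49-fold for Esr1 to 28.1-fold for Pgr. Relative to each array's epithelial marker signal, which was lowest in Met1, the excess over Met1 held for Pgr alone of the 5 and turned negative for the other 4, as given with those markers. That scaling lowered SSM2 minus Met1 of every gene by the same amount, so those signs depend on the size of the shift. The marker mean behind it varied within Met1 (SD 0.84). The scaling also raised low Met1 signal, such as the Pgr mean of 4.50, whatever cells that signal came from. It therefore cannot show how the lines differ per epithelial cell. In bulk samples, fewer cells of a type and less RNA per cell cannot be told apart. Gata3, Spdef and Greb1 passed in neither comparison. A gene was called at an adjusted p under 0.05 in limma, with Benjamini-Hochberg adjustment over all 19938 genes. By that rule 16.9% of all genes were called between SSM2 and NDL, 7.52% higher and 9.35% lower in SSM2, and 11.8% between SSM2 and Met1, 4.71% higher and 7.10% lower in SSM2. Of all genes, 1.91% were higher in SSM2 than in both other lines. All SSM2 arrays lay above all NDL arrays for 12.0% of genes and above all Met1 arrays for 13.1%, and in each comparison for the same 5 members. In the test over the 3 lines together (moderated F-test) 5 of 8 members and 25.1% of all genes passed. The median log2 difference of the 8 genes was 2.16 between SSM2 and NDL, where that of all genes was -0.09, and 2.77 between SSM2 and Met1, where that of all genes was -0.04. For NDL minus Met1 the median of the 8 was 0.36, and that of all genes 0.06. The 2 comparisons of SSM2 share the SSM2 arrays.

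**Figure D1:**
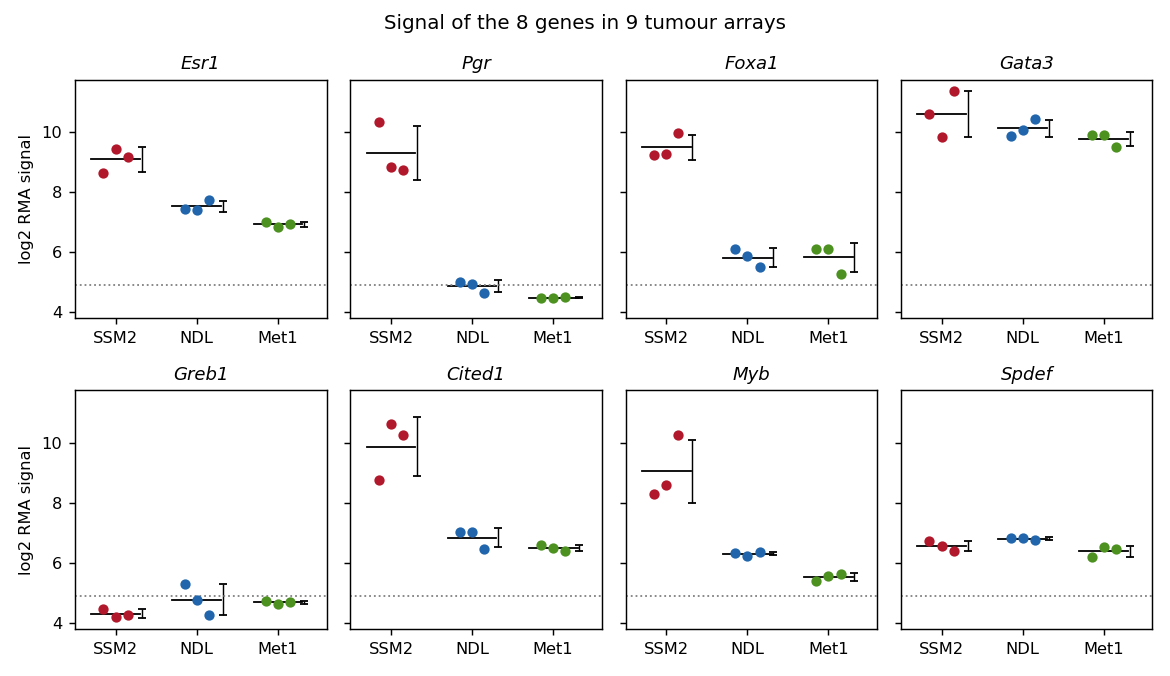
Log2 RMA signal of each of the 8 genes in the 9 arrays, in SSM2, NDL and Met1 tumours. Points are arrays, horizontal lines are means of 3, vertical bars are SD and the dotted line is the 25th percentile of gene means (4.91). The SSM2 points stand above all others for Esr1, Pgr, Foxa1, Cited1 and Myb, and Greb1 lies near the dotted line in every line.

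Pgr had the largest difference of the 8. It stood at 10.33, 8.85 and 8.74 in SSM2 replicates 1 to 3, against 5.02, 4.95 and 4.64 in NDL and 4.48, 4.49 and 4.52 in Met1. The lowest SSM2 array was 3.72 above the highest NDL array, and SSM2 replicate 1 stood apart from the other SSM2 arrays. The log2 difference was 4.44 between SSM2 and NDL (SE 0.37, adjusted p = 0.000151) and 4.81 between SSM2 and Met1 (SE 0.37, adjusted p = 0.000191). The NDL mean, 4.87, and the Met1 mean, 4.50, both lay under the 25th percentile of signal, so both differences are measured against low signal. Leaving out any single array kept both calls.

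Esr1 was present above the low-signal mark in all lines and differed less than Pgr. Its signal was 8.66, 9.46 and 9.18 in SSM2, against 7.44, 7.42 and 7.73 in NDL and 7.0, 6.86 and 6.94 in Met1. No arrays of different lines overlapped, and the order was SSM2, then NDL, then Met1. SSM2 exceeded NDL by 1.57 (SE 0.20, adjusted p = 0.00122) and Met1 by 2.17 (SE 0.20, adjusted p = 0.000339). NDL and Met1 did not pass the test (0.60, 95% interval 0.15 to 1.05, adjusted p = 0.0678), although their arrays did not overlap, a state shared by the 19.5% of all genes whose NDL arrays all lay above their Met1 arrays. That comparison passed without SSM2 replicate 1 (adjusted p = 0.0174) or SSM2 replicate 2 (adjusted p = 0.0416), which enter it only through the shared spread. Within SSM2 the receptors did not run in parallel, since replicate 1 had the highest Pgr and the lowest Esr1 signal.

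Among the lineage factors, Foxa1 was higher in SSM2 than in both other lines, which did not differ detectably from each other. It stood at 9.25, 9.26 and 9.98 in SSM2, 6.12, 5.88 and 5.50 in NDL, and 6.12, 6.12 and 5.28 in Met1. NDL and Met1 overlapped, and all SSM2 arrays were above them. SSM2 was 12.7-fold above NDL (3.67, SE 0.29, adjusted p = 0.000127) and 12.7-fold above Met1 (3.66, SE 0.29, adjusted p = 0.000203), while NDL and Met1 differed by -0.01 (95% interval -0.68 to 0.66, adjusted p = 0.991). NDL replicate 1 and Met1 replicates 1 and 2 held the identical value, a state seen in 2 or more arrays for 38.1% of all genes, so the SD of such a gene can understate the spread.

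Gata3 had signal well above the low-signal mark in all 3 lines and passed in no comparison. It stood at 10.60, 9.85 and 11.39 in SSM2, 9.88, 10.07 and 10.45 in NDL, and 9.90, 9.92 and 9.50 in Met1, with overlap between every pair of lines. The difference was 0.49 for SSM2 minus NDL (95% interval -0.32 to 1.29, adjusted p = 0.345) and 0.84 for SSM2 minus Met1 (0.04 to 1.64, adjusted p = 0.189). Without SSM2 replicate 2, the lowest SSM2 array, SSM2 minus Met1 was 1.22 and passed (adjusted p = 0.0377). T cells also carry Gata3, and 7 T cell markers averaged 5.63, 5.17 and 4.85 in SSM2 replicates 1 to 3. The part of T cells in the Gata3 signal was not tested.

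Spdef, an ETS factor of secretory and luminal epithelium, varied least of the 8 between lines. Its signal was 6.75, 6.58 and 6.41 in SSM2, 6.83, 6.85 and 6.77 in NDL, and 6.20, 6.53 and 6.46 in Met1. The SSM2 arrays lay below the NDL arrays, as they did for 19.7% of all genes, and the difference of -0.24 did not pass (95% interval -0.53 to 0.05, adjusted p = 0.213). Its NDL minus Met1 difference was 0.42 (95% interval 0.13 to 0.71), with an adjusted p of 0.05002, just above the threshold. It passed without SSM2 replicate 1 (adjusted p = 0.0455), SSM2 replicate 3 (0.0395) or NDL replicate 3 (0.0459). It also passed under the 3 other scalings of the arrays, at 0.416 after cyclic loess, 0.446 with equal medians and 0.505 after quantile normalisation (adjusted p = 0.0457, 0.0395 and 0.0231).

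Cited1 and Myb were higher in SSM2 with wide spread between its arrays. Cited1, which encodes a coactivator that binds CBP and p300 and has been linked to oestrogen receptor activity, stood at 8.77, 10.62 and 10.26 in SSM2, 7.04, 7.04 and 6.48 in NDL, and 6.62, 6.51 and 6.42 in Met1. SSM2 was 8.18-fold above NDL (3.03, SE 0.42, adjusted p = 0.00215) and 10.3-fold above Met1 (3.37, SE 0.42, adjusted p = 0.00157). Replicate 1 was the lowest SSM2 array for Cited1, and NDL replicates 1 and 2 held 1 identical value. Myb, a transcription factor of blood progenitors that is also an oestrogen target in human breast cancer cells, stood at 8.31, 8.62 and 10.26 in SSM2, 6.34, 6.25 and 6.36 in NDL, and 5.40, 5.58 and 5.63 in Met1. SSM2 exceeded NDL by 2.75 (SE 0.43, adjusted p = 0.00374) and Met1 by 3.53 (SE 0.43, adjusted p = 0.00139). Every NDL array was above every Met1 array for Myb, but the difference of 0.78 did not pass (95% interval -0.20 to 1.76, adjusted p = 0.247). It passed without SSM2 replicate 3 (adjusted p = 0.00341), the array that widens the shared spread for Myb. The mean of 4 pan-leukocyte markers was 9.29, 8.32 and 7.60 in SSM2 replicates 1 to 3. The part of leukocytes in the Myb signal was not tested.

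Greb1 stayed low in the line with the most Esr1. It stood at 4.49, 4.19 and 4.28 in SSM2, 5.29, 4.77 and 4.27 in NDL, and 4.73, 4.64 and 4.72 in Met1, so that all arrays but NDL replicate 1 were under 4.91. The SSM2 arrays lay below all Met1 arrays, as for 18.6% of all genes. The differences did not pass (SSM2 minus NDL -0.46, 95% interval -0.98 to 0.06, adjusted p = 0.185; SSM2 minus Met1 -0.38, -0.90 to 0.14, adjusted p = 0.391). Without NDL replicate 3, SSM2 was lower than NDL (-0.71, adjusted p = 0.0157).

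**Figure D2:**
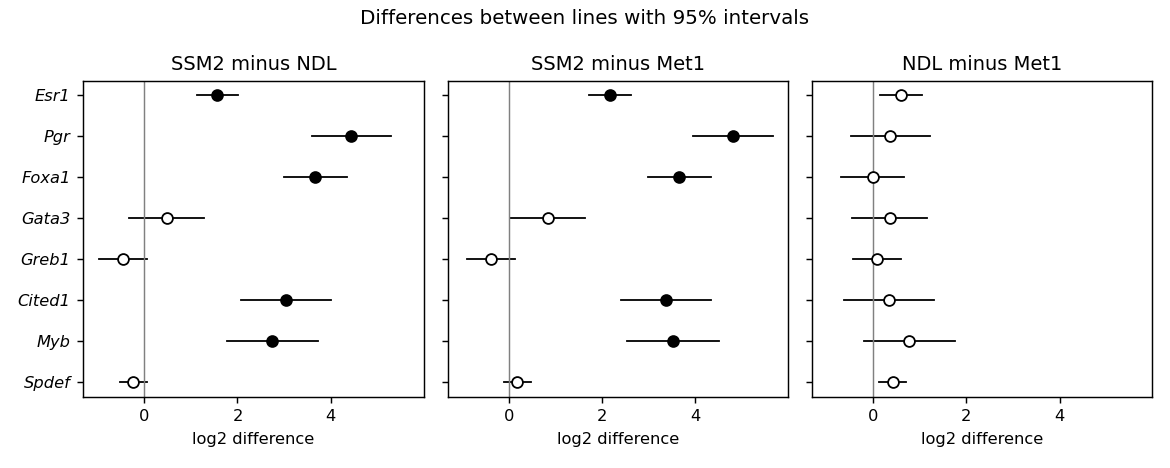
Log2 difference of each gene in SSM2 minus NDL, SSM2 minus Met1 and NDL minus Met1, with 95% intervals from the limma fit. Filled points passed at an adjusted p under 0.05. The 5 filled genes are the same in both SSM2 panels, and no point is filled in the NDL minus Met1 panel.

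Between NDL and Met1, 0 of 8 genes passed in limma, against 19.1% of all genes (8.88% higher and 10.2% lower in NDL), and 2 of 8 (Esr1 and Spdef) had an unadjusted p under 0.05, against 32.7% of all genes. The count of calls was 0 to 2 when single arrays were left out. For 4 of the 8, Esr1, Pgr, Myb and Spdef, every NDL array was above every Met1 array, as for 19.5% of all genes.

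Across the 9 arrays the 5 called genes differed in how alike their patterns were. Likeness was measured as the root mean square difference between log2 values after each gene's own mean was subtracted, a description in which line differences dominate. Foxa1 and Cited1 differed by 0.54, Cited1 and Myb by 0.56, and Foxa1 and Myb by 0.59, while Esr1 and Pgr differed by 1.45. Among all genes the 3 closest to Pgr were Clip4 (0.30), Fmo2 (0.42) and Mtmr7 (0.48). The closest to Esr1 were Rcl1 (0.21), Pcgf6 (0.27) and Vmn1r53 (0.27), the last with NDL and Met1 means of 3.80 and 3.51, under the low-signal mark. Foxa1 was closest to the basal keratin gene Krt15 (0.39), the fatty acid receptor gene Ffar4 (0.41) and Acsbg1 (0.42). Cited1 was closest to Gcnt2 (0.43), Vill (0.45) and Nipal1 (0.48), and Myb to the zinc transporter gene Slc39a4 (0.29), the claudin gene Cldn6 (0.41) and the clock gene Arntl2 (0.46).

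Of 18 measured relatives of the 8 genes, SSM2 was lower than NDL in 3 and higher in 0, or higher in 2 of 5 called after cyclic loess, and higher than Met1 in 2 and lower in 1. These counts stand beside 16.9% of all genes called between SSM2 and NDL and 11.8% between SSM2 and Met1. Cited2, which like Cited1 encodes a CBP and p300 partner, ran opposite to it between SSM2 and NDL: 9.43, 9.30 and 9.51 in SSM2, against 11.41, 11.25 and 12.09 in NDL and 9.82, 9.76 and 9.72 in Met1 (SSM2 minus NDL -2.17, SE 0.20, adjusted p = 0.000255). Foxa3 was lower in SSM2 than in NDL too (-1.60, adjusted p = 0.00804), with an SSM2 mean of 4.59 under the low-signal mark. Elf5, the ETS factor of alveolar cells, was at 5.65, 5.82 and 5.25 in SSM2, 9.98, 10.15 and 10.50 in NDL, and 6.48, 6.74 and 5.26 in Met1 (SSM2 minus NDL -4.64, SE 0.36, adjusted p = 0.000112). Against Met1, SSM2 was higher for the epithelial ETS factor Elf3 (2.21, adjusted p = 0.00101) and the mineralocorticoid receptor gene Nr3c2 (1.46, adjusted p = 0.00978), and lower for Greb1l (-1.07, adjusted p = 0.00709). Esr2, which encodes oestrogen receptor beta, was near the low-signal mark, with means of 4.75 in SSM2, 4.99 in NDL and 4.96 in Met1. The glucocorticoid receptor gene Nr3c1 had means of 7.97 in SSM2, 7.90 in NDL and 8.80 in Met1 and passed in no comparison, except between NDL and Met1 without NDL replicate 3 (adjusted p = 0.00969). Between NDL and Met1, 6 relatives were higher and 2 lower, led by Elf5 (4.05), Ehf (3.14), Elf3 (1.85) and Cited2 (1.82). Of all genes, 8.88% were higher and 10.2% lower in NDL than in Met1. Counts of called relatives changed with single arrays: from 3 to 7 for SSM2 minus NDL and 3 to 5 for SSM2 minus Met1, both without NDL replicate 3. For NDL minus Met1 the count of 8 became 12 without NDL replicate 3, 4 without NDL replicate 1 or Met1 replicate 3, and 5 without NDL replicate 2, Met1 replicate 1 or Met1 replicate 2. Calls over all 19938 genes changed in these fits too. They ran from 1873 to 7018 in SSM2 minus NDL, 1360 to 2754 in SSM2 minus Met1 and 2371 to 6631 in NDL minus Met1. The Ehf call ended without NDL replicate 1 or Met1 replicate 3 (highest adjusted p = 0.061).

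Of 24 measured genes known to respond to oestrogen, mostly from human breast cancer cells, 1 was higher and 8 were lower in SSM2 than in NDL, and 1 was higher and 5 lower in SSM2 than in Met1. Of all genes, 7.52% were higher and 9.35% lower in SSM2 than in NDL, and 4.71% higher and 7.10% lower than in Met1. The median log2 difference of the 24 was -0.29 against NDL (all genes -0.09) and -0.01 against Met1 (all genes -0.04). Dnajc12, a co-chaperone gene, was the only 1 of the 24 called higher in SSM2, in both comparisons. Others, such as Myc, had higher means in SSM2 without passing. Dnajc12 stood at 9.52, 9.69 and 10.40 in SSM2, 5.99, 6.12 and 6.07 in NDL, and 7.24, 7.23 and 7.29 in Met1. It was 14-fold above NDL (3.81, SE 0.21, adjusted p = 1.68e-05) and 6.13-fold above Met1 (2.62, SE 0.21, adjusted p = 0.000191). Ccnd1, which encodes cyclin D1, stood at 10.00, 9.93 and 9.77 in SSM2, below every array of NDL (11.61, 11.87 and 11.93) and Met1 (12.22, 12.29 and 12.31). The difference was -1.90 for SSM2 minus NDL (SE 0.12, adjusted p = 3.14e-05) and -2.37 for SSM2 minus Met1 (SE 0.12, adjusted p = 2.24e-05).

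Irs1, an adaptor of the insulin-like growth factor receptor, was lower in SSM2 than in NDL (-2.13, adjusted p = 0.0179), a call that ended without SSM2 replicate 2 or NDL replicate 1 (highest adjusted p = 0.065). The cadherin family gene Celsr2 was lower in SSM2 than in NDL as well (-1.77, adjusted p = 0.0123). Against Met1, SSM2 was lower for the small GTPase gene Rerg (-1.38, adjusted p = 0.0277) and the retinoic acid receptor gene Rara (-0.92, adjusted p = 0.0347). Both of these calls ended without SSM2 replicate 2 or 3 or Met1 replicate 1 or 2, and that of Rara also without NDL replicate 1. The trefoil factor gene Tff1, a standard oestrogen marker in human cells, had means of 6.03 in SSM2, 6.07 in NDL and 6.06 in Met1. Myc had means of 10.37 in SSM2, 9.27 in NDL and 9.14 in Met1 and passed in neither SSM2 comparison, except without SSM2 replicate 1 (adjusted p = 0.00283 against NDL and 0.00231 against Met1). Between NDL and Met1, 4 of the 24 were higher, led by Irs1 (2.71), Celsr2 (2.28), Xbp1 (1.46) and Cxxc5 (1.34), and 2 lower, against 8.88% and 10.2% of all genes. The number called was 4 in place of 9 for SSM2 minus NDL without NDL replicate 1. For SSM2 minus Met1 it was 2 in place of 6 without SSM2 replicate 2 or Met1 replicate 1, and 3 without Met1 replicate 2. With single arrays left out, calls over all genes fell to as few as 1873 and 1360 in these 2 comparisons, from 3364 and 2356.

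Of 13 measured genes known to respond to progesterone, 0 were higher and 1, Elf5, was lower in SSM2 than in NDL, where 16.9% of all genes were called. Between SSM2 and Met1, 0 passed in limma, against 11.8% of all genes, and 4 had an unadjusted p under 0.05, against 23.7% of all genes. Of these 4, Wnt4 (1.59), Klf9 (0.80) and Zbtb16 (0.70) had higher means in SSM2 and Sgk1 (-0.44) a lower one. The median of the 13 was -0.25 against NDL and -0.17 against Met1. Tnfsf11, which encodes RANKL, the paracrine signal of progesterone in the mouse mammary gland, stood at 7.22, 6.75 and 7.14 in SSM2, 7.61, 7.89 and 7.19 in NDL, and 7.22, 7.26 and 7.16 in Met1. Its SSM2 minus Met1 difference was -0.18 (95% interval -0.61 to 0.26, adjusted p = 0.698). SSM2 minus NDL was -0.53 (95% interval -0.96 to -0.10, adjusted p = 0.091) and passed only without NDL replicate 3 (adjusted p = 0.0131). Wnt4, a Wnt ligand downstream of the progesterone receptor, was high in 1 SSM2 array, at 7.39, 9.35 and 6.89 in SSM2, 6.62, 6.63 and 6.17 in NDL, and 6.37, 6.32 and 6.17 in Met1. Every SSM2 array lay above the other lines, and the difference did not pass against NDL (1.404, SE 0.53, adjusted p = 0.106) or Met1 (1.59, SE 0.53, adjusted p = 0.102). It passed against NDL without SSM2 replicate 3 (adjusted p = 0.0372), and against Met1 without SSM2 replicate 2 or 3 (lowest adjusted p = 0.0306). Between NDL and Met1, Elf5 was higher and the kinase gene Sgk1 lower (-0.52, adjusted p = 0.0467), and Sgk1 in only 3 of 9 fits with 1 array left out. Leaving out NDL replicate 3 gave 7 called genes for SSM2 minus NDL, and leaving out SSM2 replicate 3 gave 2. For SSM2 minus Met1 there were 2 when SSM2 replicate 3 was left out, and 1 when SSM2 replicate 2, NDL replicate 3 or Met1 replicate 3 was. For NDL minus Met1 there were 5 without NDL replicate 3 and 1 without SSM2 replicate 3, NDL replicate 1 or any 1 of the Met1 arrays. These counts moved while calls over all genes rose as high as 7018 in SSM2 minus NDL (3364 with all arrays) and 6631 in NDL minus Met1 (3814).

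**Figure D3:**
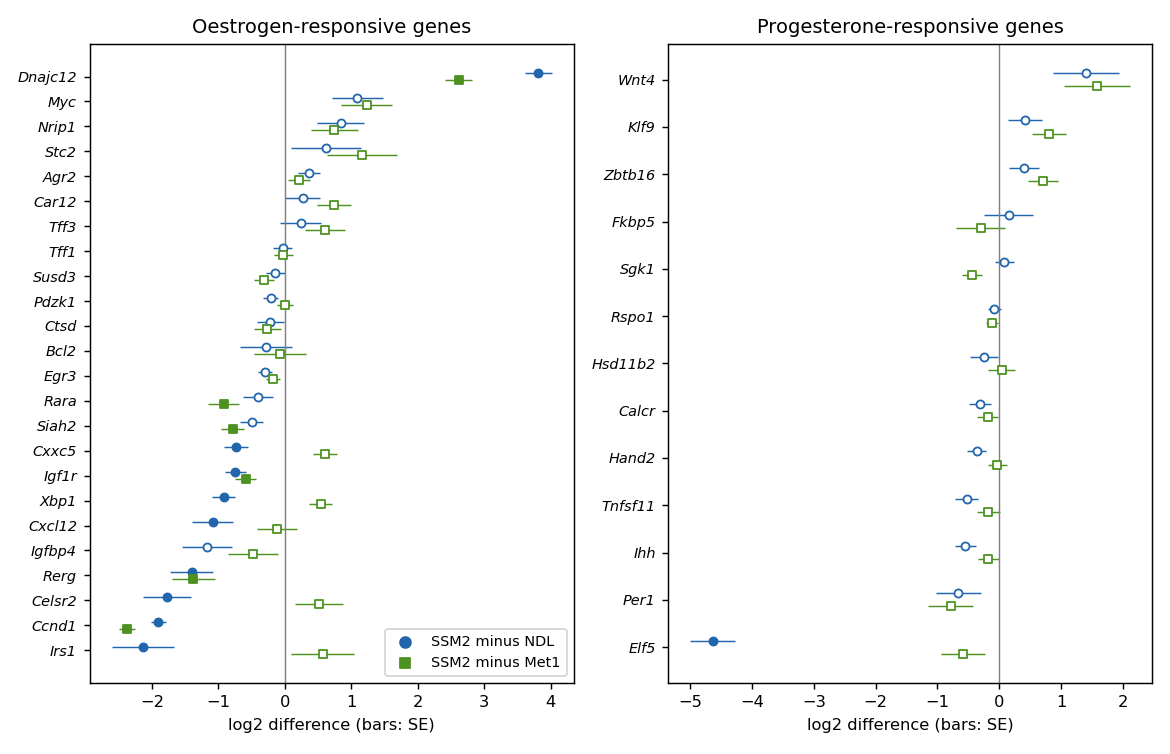
Log2 differences of 24 oestrogen-responsive and 13 progesterone-responsive genes in SSM2 minus NDL (circles) and SSM2 minus Met1 (squares), with standard errors as bars and genes ordered by the first. Filled points passed at an adjusted p under 0.05. Dnajc12 is the only filled gene to the right of 0, and Ccnd1 is among those to the left in both comparisons.

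Of 16 measured luminal identity genes, 3 were higher and 4 lower in SSM2 than in NDL, and 6 were higher and 0 lower in SSM2 than in Met1. Of all genes, 7.52% were higher and 9.35% lower in SSM2 than in NDL, and 4.71% higher and 7.10% lower than in Met1. The median of the 16 was 0.23 against NDL and 1.58 against Met1. Tbx3, a T-box factor of hormone-sensing cells, moved with the receptors, at 9.07, 8.12 and 7.96 in SSM2, 6.26, 6.26 and 6.05 in NDL, and 5.44, 5.66 and 5.33 in Met1 (SSM2 minus NDL 2.19, adjusted p = 0.00104; SSM2 minus Met1 2.91, adjusted p = 0.000349). Krt19, a keratin of simple epithelia, was higher in SSM2 by 7.14 over NDL (adjusted p = 9.33e-05) and by 8.24 over Met1 (adjusted p = 7.99e-05). The AP-2 gamma gene Tfap2c and the receptor kinase gene Kit were lower in SSM2 than in NDL (Tfap2c -3.98, adjusted p = 9.61e-05; Kit -3.71, adjusted p = 0.000669), and Elf5 is in this list too. Krt8 (5.01) and Krt18 (3.45), keratins of simple epithelium, were higher in SSM2 than in Met1. In NDL, 10 of the 16 were higher than in Met1 and 0 lower, led by Krt8 (4.24), Elf5 (4.05), Tfap2c (4.01) and Krt18 (3.36). Of all genes, 8.88% were higher and 10.2% lower in NDL than in Met1.

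Coregulators of the receptors and enzymes of steroid hormones were called between SSM2 and NDL at about the share of all genes, 16.9%. Of 18 coregulators, 1 was higher and 2 lower in SSM2 than in NDL: the demethylase gene Kdm1a (1.00, adjusted p = 0.00377), the methyltransferase gene Kmt2d (-0.78, adjusted p = 0.00155) and the coactivator gene Ncoa1 (-0.71, adjusted p = 0.0479), the last in only 2 of 9 fits with 1 array left out. Between SSM2 and Met1, 0 of 18 passed in limma and 0 had an unadjusted p under 0.05, against 11.8% and 23.7% of all genes. Kdm1a was lower (-0.97) and Kmt2d higher (0.56) in NDL than in Met1. Without NDL replicate 3, 8 coregulators were called between SSM2 and NDL and 5 between NDL and Met1. Of 7 enzymes, Hsd11b1, which regenerates active glucocorticoid, was lower in SSM2 than in NDL (-1.70, adjusted p = 0.0191), a call lost without SSM2 replicate 2, NDL replicate 1 or NDL replicate 2. Hsd17b7, an enzyme of oestradiol and cholesterol synthesis, was lower in SSM2 than in Met1 (-1.24, adjusted p = 0.00355) and in NDL than in Met1 (-0.79, adjusted p = 0.0184), which ended without NDL replicate 1 or 2 or any 1 Met1 array. Leaving out NDL replicate 3 gave 3 called enzymes for SSM2 minus NDL, and leaving out SSM2 replicate 3 gave 2. For SSM2 minus Met1 there were 2 without SSM2 replicate 1 or Met1 replicate 3, and for NDL minus Met1 3 without NDL replicate 3. With single arrays left out, calls over all genes also rose, to as many as 7018 in SSM2 minus NDL and 6631 in NDL minus Met1.

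Epithelial marker signal differed between the lines beside these results. The mean of 8 epithelial markers was 11.09 ± 0.12 in SSM2, 10.62 ± 0.04 in NDL and 7.31 ± 0.84 in Met1 (SD, n = 3 each). All 8 were higher in SSM2 than in Met1 and all 8 in NDL than in Met1, while 1, Cldn4, was higher in SSM2 than in NDL. Relative to the epithelial mean of each array, a scaling chosen after the data were seen, the SSM2 minus NDL difference was 3.97 for Pgr, 3.20 for Foxa1, 2.56 for Cited1 and 2.28 for Myb, each still passing, and 1.10 for Esr1, which did not pass (adjusted p = 0.215). On that scale SSM2 minus Met1 was 1.03 for Pgr (adjusted p = 0.0317), -0.12 for Foxa1 (adjusted p = 0.806), -0.41 for Cited1 (adjusted p = 0.392), -0.25 for Myb (adjusted p = 0.6) and -1.61 for Esr1 (adjusted p = 0.000789).

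Markers of several other cell types varied within SSM2. In SSM2 replicates 1, 2 and 3 the mean was 10.41, 9.60 and 8.86 for 8 fibroblast markers, 9.53, 8.86 and 8.03 for 8 macrophage markers, and 7.59, 7.0 and 5.70 for 6 adipocyte markers. The fibroblast mean ranged from 8.60 to 8.97 in NDL and from 7.81 to 8.71 in Met1, and the macrophage mean from 8.26 to 8.95 in NDL and from 9.70 to 9.96 in Met1. Of the 8 fibroblast markers, 3 were higher and 1, Pdgfra, lower than in Met1, both in SSM2 (Pdgfra -1.54) and in NDL (Pdgfra -2.53). Of all genes, 4.71% were higher and 7.10% lower in SSM2 than in Met1, and 8.88% higher and 10.2% lower in NDL. Replicate 1, with the most stromal signal, had the highest Pgr of the SSM2 arrays and the lowest Esr1, Foxa1, Cited1 and Myb, with Foxa1 at 9.25 against 9.26 in replicate 2. Replicate 3, with the least, had the highest Foxa1, Gata3 and Myb. The part of these cells in the spread within SSM2 was not tested. Without SSM2 replicate 1 or without SSM2 replicate 3, the 5 genes called in SSM2 were called still. Basal markers averaged 8.67 ± 0.29 in SSM2, 7.03 ± 0.18 in NDL and 6.65 ± 0.68 in Met1, but did not move alike. Of 6, 3 were higher in SSM2 than in NDL (Krt5 4.62, Krt14 4.07 and Trp63 1.66), against 7.52% of all genes. The 1 lower was Oxtr (-0.77, adjusted p = 0.00168), against 9.35% of all genes. The 3 B cell markers stayed between 3.95 and 4.34 in all arrays, 2 of the 3 under the low-signal mark in each line. T cell markers, 2 of 7 of them under that mark in each line, ranged from 4.85 to 5.63 in SSM2, 5.22 to 5.76 in NDL and 5.68 to 6.04 in Met1. Endothelial markers ranged from 6.96 to 7.78 in SSM2, 6.84 to 6.95 in NDL and 6.81 to 7.09 in Met1.

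**Figure D4:**
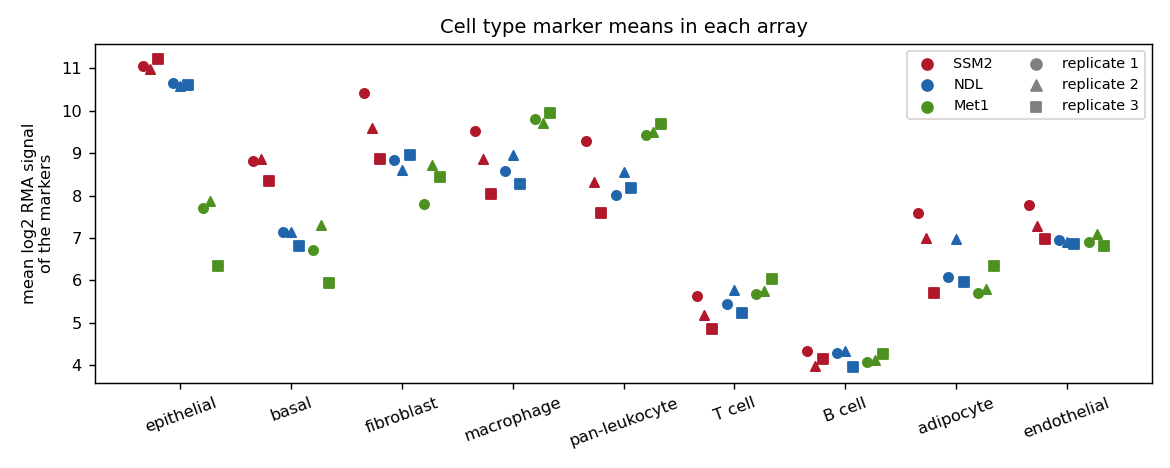
Mean log2 RMA signal of the markers of each cell type in every array, for SSM2, NDL and Met1, with the symbol giving the replicate. Met1 arrays lie lowest for epithelial markers (6.34 to 7.86), and SSM2 replicate 1 lies above replicates 2 and 3 for fibroblast, macrophage, leukocyte and adipocyte markers.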

How the data were processed

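Total RNA from 9 snap-frozen tumour samples, 3 per line, was hybridised to Affymetrix Mouse Gene 1.0 ST arrays. The deposited log2 signals were made by the authors with RMA (oligo 1.40.2), per the submitters' processing notes; the genome build is not given in the sources used here. Features with 1 gene symbol (21789 of 35556) were kept, symbols were updated through RefSeq (GRCm38.p6; 21698 matched, 91 kept), and for the 999 genes with several features the one with the highest mean was used, leaving 19938 genes without a filter. In R 4.3.3, with the data.table package (version 1.17.8), limma 3.58.1 fitted all 9 arrays with lmFit and eBayes (6 residual and 2.42 prior degrees of freedom), with two-sided contrasts, Benjamini-Hochberg adjustment over all genes and a threshold of 0.05; intervals are 95%. Errors of means are SDs and of differences the model's SEs. The 8 genes, the lists and the tests were chosen with earlier results of these data known. Named genes are all 8; per list and contrast the 4 largest called differences, or every called gene where 5 or fewer were called; and the 3 nearest patterns of each gene called by the F-test. Tff1, Esr2, Nr3c1, Myc, Tnfsf11, Wnt4, Klf9, Zbtb16 and Prom1 were named outside this rule, after their values were seen. Some listed genes were not analysed here. The alternatives were a signal filter, a variance trend, other scalings, array weights, feature means, the replicate number as a block, fits of 2 lines, and arrays left out; quantile normalisation and, for the 5 called genes alone, scaling to epithelial markers were chosen after seeing the data. Same-numbered samples of different lines deviated from their line means with correlations from -0.35 to 0.29 over 9 pairs. For samples with other numbers they ran from -0.33 to 0.34 over 18 pairs. So few arrays cannot exclude pairing, and the main fit did not use the numbers. The fit was also run on simulated data with independent normal values. Those data held no array effects and no identical values, so they cannot show how the fit handles these. Figures used matplotlib 3.10.9 and pandas 2.3.3.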

Additional observations from a re-analysis of the deposited data

How the results depend on the processing

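Scaling to epithelial markers shifts all genes of an array alike. The 5 genes called in SSM2 against Met1 kept their calls in every alternative except that scaling, where SSM2 minus Met1 turned to -0.12 for Foxa1, -0.41 for Cited1, -0.25 for Myb and -1.61 for Esr1. Against NDL they kept them except for Esr1 on that scale (1.10, adjusted p = 0.215) and for Esr1 (1.37, adjusted p = 0.0562) and Myb (2.71, adjusted p = 0.0958) with NDL replicate 3 as the only NDL array, where 3 members were called and the lone array is assumed to vary like the other lines. With single arrays left out, 5 to 6 members were called in SSM2 minus NDL, 5 to 6 in SSM2 minus Met1, 0 to 2 in NDL minus Met1 and 5 to 6 over the 3 lines together. In NDL minus Met1, 0 members became 2 after cyclic loess, 1 with equal medians, 1 with feature means, 3 in a fit of the 2 lines alone (Esr1, Myb and Spdef) and 2 after quantile normalisation. Feature means and the fit of 2 lines left the members' differences unchanged, so there only the estimated spread and the adjustment differed. The cause of the other changes was not tested. Small differences not called with all 9 arrays changed sign. In NDL minus Met1, Foxa1 was 0.029 after cyclic loess, 0.019 with equal medians, and -0.29 to 0.16 with single arrays left out (0.13 without Met1 replicate 1 or 2). Greb1 there was -0.031 after cyclic loess, -0.024 after quantile normalisation, -0.18 to 0.33 with single arrays left out and -0.42 with NDL replicate 3 alone, with which Cited1 was -0.040 and Greb1 in SSM2 minus NDL 0.045. The filter at the 25th percentile removed Greb1. With the replicate number as a block, 5 members were called in SSM2 minus NDL, 5 in SSM2 minus Met1 and 0 in NDL minus Met1, and the block changed no member's call. The median of all genes in SSM2 minus NDL was -0.09 as deposited and -0.13 with equal medians.

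Calls over all genes numbered 3364, 2356 and 3814 in SSM2 minus NDL, SSM2 minus Met1 and NDL minus Met1. They ranged from 1873 to 7018, 1360 to 2754 and 2371 to 6631 with single arrays left out, were 4007 in SSM2 minus Met1 with array weights, whose estimation stopped before its tolerance was reached, and 1755 in SSM2 minus NDL with those lines alone, and were 1190 in SSM2 minus NDL and 1702 in NDL minus Met1 with NDL replicate 3 alone. Under the alternatives 58 list counts moved by more than 1.5 times and 284 did not. Apart from single arrays left out, these included oestrogen-responsive genes in SSM2 minus NDL (9 called, 5 with array weights, 2 with NDL replicate 3 alone), relatives there (3, all lower, or 5 with 2 higher after cyclic loess), and progesterone-responsive genes in SSM2 minus Met1 (0, or 3 higher with array weights and 1 with the replicate block). Greb1 in all lines and Pgr in NDL and Met1 had mean signal under the 25th percentile.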
